A study of Arabidopsis thaliana with 12 samples.

Results

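Leaves of Arabidopsis sid2 plants in which a constitutively active MAP kinase kinase had been switched on were compared with leaves of Col plants given the same treatment, to ask which transcripts still differed with SID2 when the MAPK cascade was driven from outside. The arrays were chosen by their labels, sid2 DEX replicates 1 to 3 and Col DEX replicates 1 to 3, which makes 6 of the 12 arrays of the study. Both groups carried the DEX-MKK4DD transgene, in which the active form of MKK4 stands under a promoter induced by dexamethasone (DEX). It had been crossed from the Col background into sid2-2. Leaves of 4-week-old plants were infiltrated with 2 µM DEX and collected after 24 h, with n = 3 biological replicates per group. The sid2 mock and Col mock leaves, with 3 arrays each, carried the same transgene and received 0.1% ethanol. DEX-treated leaves without the transgene were not analysed here, so an effect of DEX itself cannot be told apart from that of MKK4DD. Leaves are a mixture of cell types, and fewer cells of a type cannot be told apart from less RNA per cell.

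SID2 encodes isochorismate synthase 1, which provides most of the salicylic acid (SA) that Arabidopsis makes during an immune response. SA is sensed by NPR1 and its relatives NPR3 and NPR4, which act with TGA transcription factors, and many WRKY factors, PR proteins and enzymes that hydroxylate or conjugate SA are controlled downstream. MKK4 activates the MAP kinases MPK3 and MPK6, which control defence genes by a separate route.

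Each array gave 1 normalised intensity for each of 32627 loci, and all levels below are log2 intensities, on which a difference of 1 is a 2-fold change. Median intensities of the DEX arrays lay between 255 and 262. Pearson's r across loci was 0.993 to 0.994 among the sid2 DEX arrays, 0.992 to 0.994 among the Col DEX arrays and 0.995 to 0.996 between sid2 DEX and Col DEX arrays of the same replicate number. The 5 leaf markers on the list, such as RBCS1A and CAB1, were high in all DEX arrays, and root, seed and flower markers were dim. None of the leaf, root, seed and flower markers was called between the groups.

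The mutated gene was examined first. SID2 stood at 6.11, 6.01 and 6.21 in sid2 DEX replicates 1, 2 and 3, against 12.48, 6.08 and 12.26 in Col DEX replicates 1, 2 and 3. It stood at 6.0, 6.26 and 6.12 in sid2 mock, against 10.36, 9.72 and 10.21 in Col mock. The array labelled Col DEX replicate 2 therefore had the SID2 level of the sid2 arrays and went against its label, whereas the Col mock array of the same number did not. Whether the probes lie in the sequence that sid2-2 changes was not tested. Results are given with all arrays and without the array labelled Col DEX replicate 2. Since a SID2 level decided which array was left out, SID2 has no test in the second fit. For the other genes the p-values of that fit do not allow for this choice. It also narrows the Col DEX spread of any gene that followed SID2 in that array, so that such genes were more readily called.

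**Figure D1:**
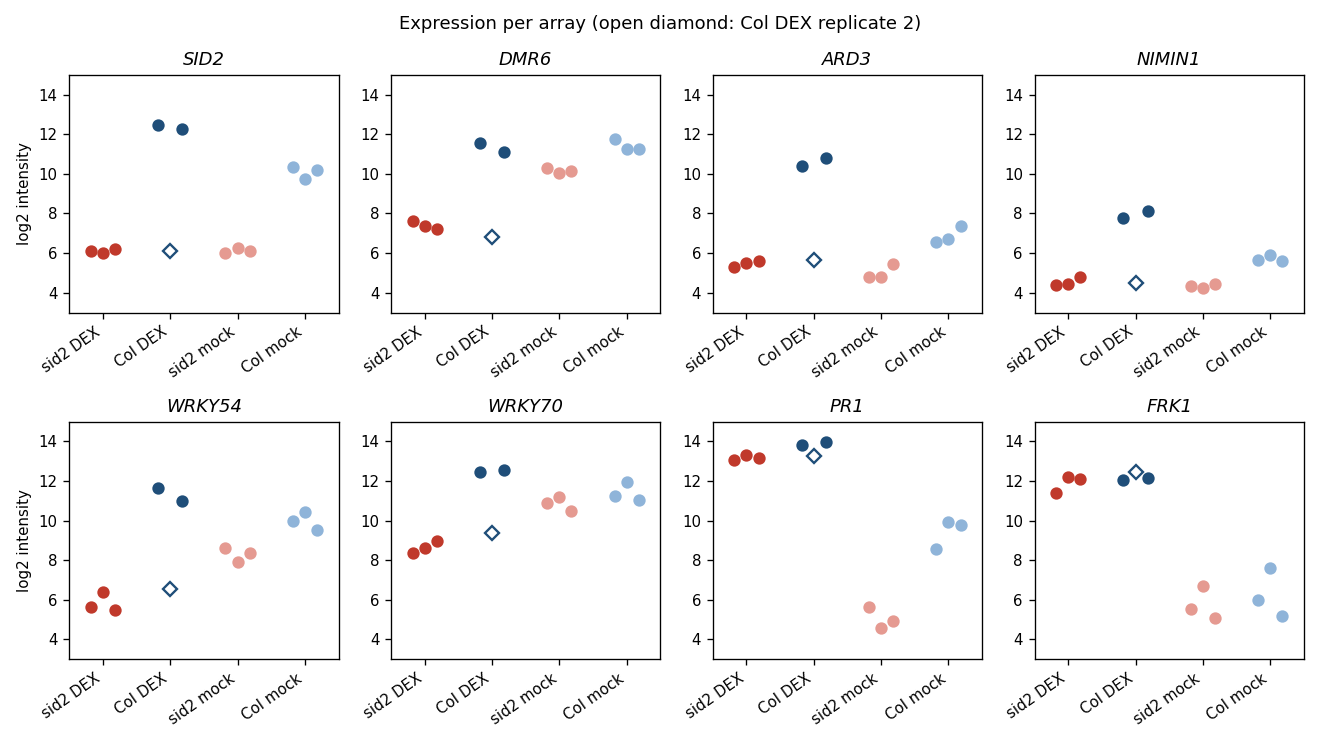
Log2 intensity of 8 genes on each of the 12 arrays, with sid2 DEX, Col DEX, sid2 mock and Col mock from left to right and the array labelled Col DEX replicate 2 as an open diamond. For SID2, DMR6, ARD3, NIMIN1, WRKY54 and WRKY70 the diamond lies near the sid2 DEX points and away from the other Col DEX points. PR1 and FRK1 are high in all DEX arrays, and for PR1 the diamond lies within the sid2 DEX range.

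With all arrays, no gene was called between sid2 DEX and Col DEX at an adjusted p under 0.01 and more than 2-fold (0% of loci, limma with Benjamini-Hochberg adjustment over all loci). At an unadjusted p under 0.05, 1098 loci were lower and 783 higher in sid2 DEX, 5.77% of all loci together, and the smallest adjusted p was 0.191. SID2 itself differed by -4.17 ± 1.19 (SE) with an adjusted p of 0.783, since its Col DEX arrays spanned more than 6 log2 units.

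When the array labelled Col DEX replicate 2 was set aside, 37 genes other than SID2 were called lower in sid2 DEX, 0.113% of loci, and no gene was called higher. SID2 also met the limits, as the choice of that array had fixed, and is described with these genes but has no test. This leaves n = 3 sid2 DEX and n = 2 Col DEX arrays. Other than SID2, 1232 loci were lower (3.78%) and 761 higher (2.33%) at an unadjusted p under 0.05, and at an adjusted p under 0.05 with more than 2-fold the genes numbered 71 lower (0.218% of loci) and 0 higher. For each of the 37 genes the sid2 DEX range lay apart from that of Col DEX replicates 1 and 3. The choice of the genes on these same arrays favours this, and the share of all loci was not counted. The 37 genes were 2.25-fold to 45.4-fold lower in sid2 DEX, with a median difference of -2.30. With all arrays their median difference was -1.51, and their smallest adjusted p was 0.520. In that fit 36 of the 37 had an unadjusted p under 0.05, where 5.77% of all loci had. The choice of the genes on these same arrays favours this, so that it is no separate support. With SID2 counted, the genes past the limits numbered 38, or 0.116% of loci, and this fell to 17 without Col DEX replicate 1 and 14 without Col DEX replicate 3, where the remaining Col DEX array is assumed to vary like the other groups. It was 25 without sid2 DEX replicate 1, 20 without sid2 DEX replicate 3 and 9 when the DEX arrays were fitted alone with the replicate as a block.

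**Figure D2:**
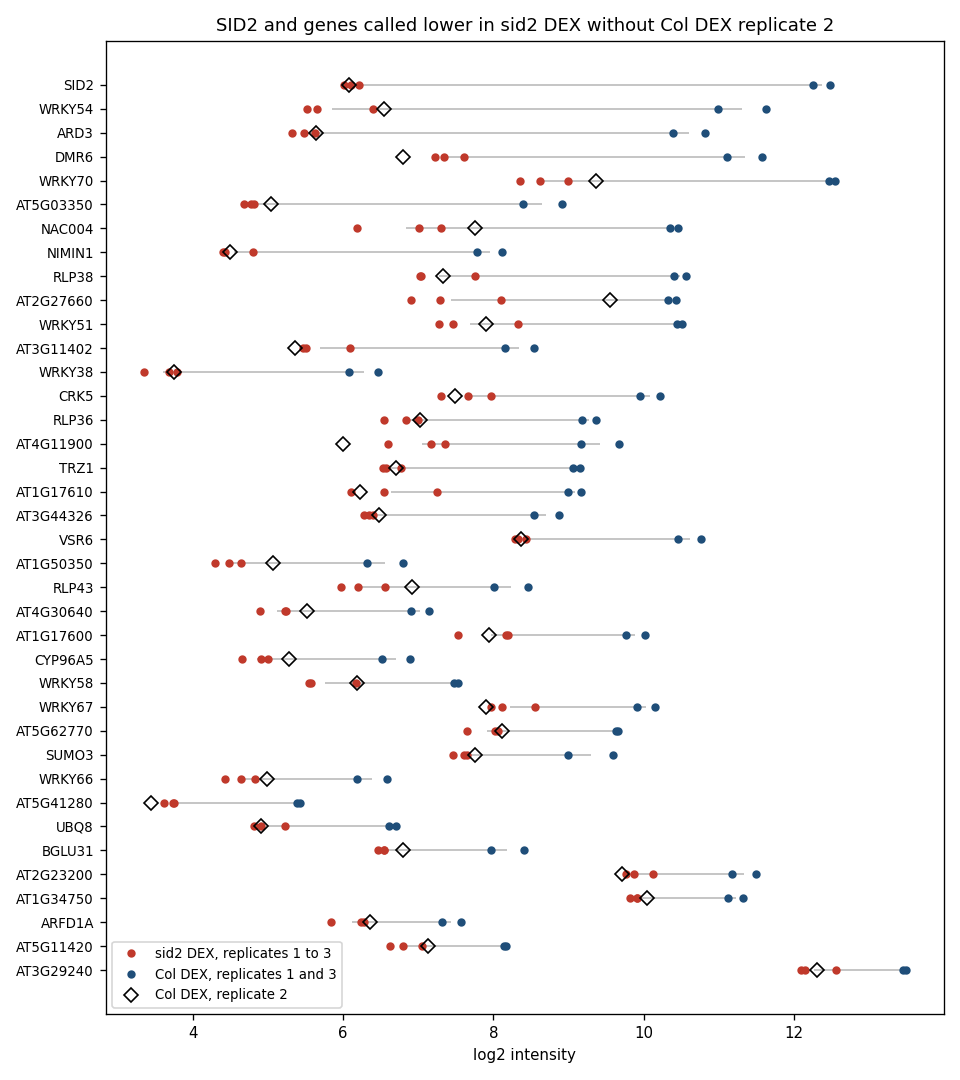
Log2 intensity of SID2 and the 37 called genes (rows) in sid2 DEX replicates 1 to 3 (red), Col DEX replicates 1 and 3 (blue) and the array labelled Col DEX replicate 2 (open diamond), with a grey line between the sid2 DEX mean and the mean of Col DEX replicates 1 and 3. Every red range lies below the blue points, which the choice of the genes on these arrays favours. For all rows but AT2G27660 the diamond is nearer to the red end.

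Among enzymes that act on SA, DMR6 was called. DMR6 hydroxylates SA and limits its accumulation. It stood at 7.60, 7.34 and 7.23 in sid2 DEX, against 11.57, 6.79 and 11.11 in Col DEX, so that the array labelled Col DEX replicate 2 lay below all sid2 DEX arrays. Without that array DMR6 was 15.2-fold lower in sid2 DEX (-3.93 ± 0.15, adjusted p = 4.67e-06 by limma). With all arrays the difference was -2.43 ± 0.86 (adjusted p = 0.797). Of the 7 genes for hydroxylation and conjugation of SA, DMR6 was the 1 that was called, where 0.113% of loci were. All 7 had a value below 0 without the array in doubt, where 48.7% of loci had. With all arrays 6 of the 7 had, where 50.7% of loci had. DLO1, which hydroxylates SA at another position, had levels of 4.13, 3.88 and 3.92 in sid2 DEX, against 8.12, 3.88 and 5.59 in Col DEX. The Col DEX replicates were far apart, and DLO1 was not called (adjusted p = 0.0946). The glucosyltransferase UGT76B1 had 12.18, 12.18 and 11.83 in sid2 DEX, against 13.43, 12.05 and 13.24 in Col DEX. It was not called (adjusted p = 0.104), and neither was UGT74F2, an SA glucosyltransferase, at -0.99 (adjusted p = 0.0441).

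Apart from SID2, which has no test, the genes for SA synthesis and its control did not pass the test. Of 11 such genes other than SID2, none was called without the array in doubt, where 0.113% of loci were. At an unadjusted p under 0.05, 4 of them (36.4%) were lower, where 3.78% of loci were. Their median difference was -0.36, where that of all loci was 0.0056. EDS5, which exports the SA precursor from the chloroplast, stood at 13.02, 12.86 and 12.94 in sid2 DEX, against 12.93, 13.05 and 13.00 in Col DEX. SARD1, a transcription factor of SA synthesis, stood at 12.95, 12.96 and 13.07 in sid2 DEX, against 13.14, 12.95 and 13.34 in Col DEX. With all arrays the groups overlapped in both genes, and for SARD1 the overlap rested on the array labelled Col DEX replicate 2. Neither gene passed the test in either fit. PAD4, a partner of EDS1 upstream of SA, differed by -1.06 ± 0.28 (adjusted p = 0.365), and AT3G48080, the locus beside EDS1, by -2.58 ± 0.44 (adjusted p = 0.0618).

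Of 11 genes of SA perception on the array, NIMIN1 was called, where 0.113% of loci were. NIMIN1 encodes a small protein that binds NPR1 and dampens its output. Its levels were 4.40, 4.43 and 4.80 in sid2 DEX, against 7.78, 4.50 and 8.11 in Col DEX, and without the array in doubt it was 10.6-fold lower in sid2 DEX (-3.40 ± 0.15, adjusted p = 9.67e-06). The lower quartile of the arrays lay at 4.15 to 4.20, so that NIMIN1 was near the dim end of the arrays in sid2. The receptor genes NPR1, NPR3 and NPR4 had differences of -0.39, -0.61 and -0.55 and were not called, and the TGA genes lay between -0.39 and 0.06 and were not called either.

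ARD3 encodes an acireductone dioxygenase, an enzyme of the pathway that recycles methionine. It stood at 5.32, 5.48 and 5.62 in sid2 DEX, against 10.40, 5.64 and 10.81 in Col DEX. It was 34.3-fold lower in sid2 DEX without the array in doubt (-5.10 ± 0.21, adjusted p = 4.92e-06), while the difference with all arrays was -3.47 ± 0.95 (adjusted p = 0.783). The other genes of methionine salvage did not follow. Of 8 in all, ARD3 was the 1 that was called, where 0.113% of loci were. The rest lay between -0.06 and 0.17, the paralogs ARD1, ARD2 and ARD4 included.

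Of 68 loci with a WRKY symbol on the array, 7 (10.3%) were called lower, where 0.113% of all loci were, and 5 of the 7 belong to group III. The whole symbol family was counted after the called genes had been seen, and its median difference was -0.087. WRKY54 was at 5.66, 6.39 and 5.51 in sid2 DEX, against 11.63, 6.54 and 10.99 in Col DEX. It was 45.4-fold lower in sid2 DEX without the array in doubt (-5.50 ± 0.32, adjusted p = 6.97e-05). Its close relative WRKY70, which acts with it as a regulator of SA responses, was at 8.36, 8.62 and 8.99 in sid2 DEX, against 12.47, 9.36 and 12.54 in Col DEX. WRKY70 was 15.1-fold lower (-3.92 ± 0.27, adjusted p = 2.38e-04). In both genes the array labelled Col DEX replicate 2 lay above all sid2 DEX arrays but far below the other Col DEX arrays. WRKY38, a repressor of basal defence that is induced through NPR1, stood at 3.79, 3.68 and 3.35 in sid2 DEX, against 6.08, 3.75 and 6.47 in Col DEX (-2.64 ± 0.22, adjusted p = 0.00108). It was thus among the dim genes in sid2.

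Group III was uneven. Of its 13 genes, 5 were called lower (WRKY38, WRKY54, WRKY66, WRKY67 and WRKY70) and none higher, with a median difference of -0.91, where that of all loci was 0.0056 and 0.113% of loci were called lower. WRKY66 differed by -1.76 ± 0.16 (adjusted p = 0.00143) and WRKY67 by -1.80 ± 0.18 (adjusted p = 0.00245). WRKY62, which acts with WRKY38, had 5.48, 4.56 and 4.75 in sid2 DEX, against 7.83, 4.89 and 6.26 in Col DEX. Its Col DEX replicates 1 and 3 differed by more than 1 log2 unit, and it was not called (adjusted p = 0.118). At the other end WRKY30 stood at 13.91, 14.15 and 14.14 in sid2 DEX, against 13.98, 14.18 and 14.11 in Col DEX, with the groups overlapping. WRKY41, WRKY46, WRKY53, WRKY55, WRKY63 and WRKY64 were not called. WRKY63, WRKY64, WRKY66 and WRKY67 are close relatives, and whether their probes share signal was not tested. The called WRKY51 and WRKY58 lie outside group III and differed by -2.75 ± 0.25 (adjusted p = 0.00174) and -1.80 ± 0.20 (adjusted p = 0.00553).

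**Figure D3:**
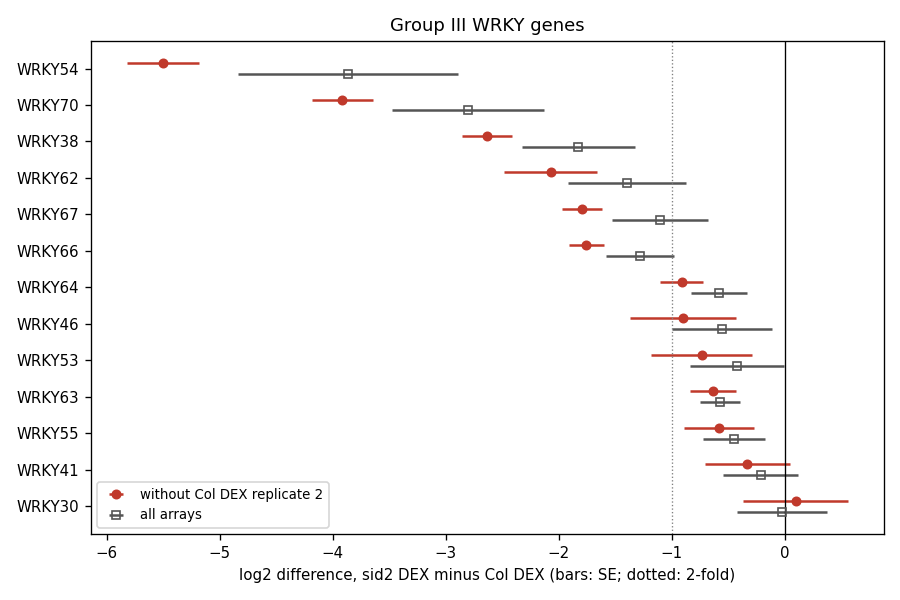
Log2 difference, sid2 DEX minus Col DEX, of the 13 group III WRKY genes without the array labelled Col DEX replicate 2 (filled red circles) and with all arrays (open squares). Bars are standard errors and the dotted line marks a 2-fold lower level; WRKY54 and WRKY70 lie farthest to the left and WRKY30 at 0.

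Of 54 loci with an RLP symbol, also counted after the called genes had been seen, 3 (5.56%) were called lower. Over all loci 0.113% were. The median difference of the 54 was -0.12, where that of all loci was 0.0056. The receptor-like proteins RLP38, RLP36 and RLP43, which have leucine-rich repeats outside the cell and no kinase domain, were 9.01-fold, 5.65-fold and 4.21-fold lower in sid2 DEX without the array in doubt. RLP38 stood at 7.75, 7.03 and 7.03 in sid2 DEX, against 10.56, 7.33 and 10.41 in Col DEX. The array labelled Col DEX replicate 2 lay within the sid2 DEX range for RLP38 and above it for RLP36 and RLP43. The cysteine-rich receptor-like kinase CRK5 had 7.96, 7.66 and 7.30 in sid2 DEX, against 10.22, 7.49 and 9.95 in Col DEX (-2.52 ± 0.27, adjusted p = 0.00478). It was the 1 called among 18 CRK genes, where 0.113% of all loci were. The median difference of the 18 was -0.36, where that of all loci was 0.0056. AT1G17610, known as CHILLING SENSITIVE 1, was at 7.24, 6.11 and 6.54 in sid2 DEX, against 9.17, 6.23 and 8.99 in Col DEX (-2.40 ± 0.23, adjusted p = 0.00208). AT1G17600, its neighbour on the chromosome, was 3.67-fold lower in sid2 DEX (adjusted p = 0.00605).

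Other called genes with a name were more varied in kind. NAC004, a NAC-domain transcription factor, stood at 6.19, 7.31 and 7.02 in sid2 DEX, against 10.45, 7.76 and 10.36 in Col DEX (-3.60 ± 0.33, adjusted p = 0.00174). SUMO3, a small ubiquitin-like modifier, had 7.46, 7.65 and 7.61 in sid2 DEX, against 9.0, 7.75 and 9.60 in Col DEX (-1.76 ± 0.17, adjusted p = 0.00208). Both had the array labelled Col DEX replicate 2 above the sid2 DEX range and more than 1 log2 unit below the other Col DEX arrays. The ubiquitin gene UBQ8 was 3.24-fold lower, the cytochrome P450 gene CYP96A5 3.59-fold lower, the vacuolar sorting receptor gene VSR6 4.93-fold lower and the small GTPase gene ARFD1A 2.55-fold lower in sid2 DEX. The β-glucosidase gene BGLU31, next to DMR6 on the chromosome, was 3.15-fold lower, and TRZ1, the tRNase Z gene next to SID2, was 5.39-fold lower. TRZ1 stood at 6.58, 6.53 and 6.77 in sid2 DEX, against 9.05, 6.71 and 9.15 in Col DEX. NIMIN1 and ARFD1A are also neighbours, so that 8 genes, SID2 included, stood beside another of these genes in the RefSeq order, where probe overlap or read-through was not tested.

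Loci without a symbol in the RefSeq table made up the rest. AT5G03350 stood at 4.77, 4.82 and 4.68 in sid2 DEX, against 8.91, 5.03 and 8.39 in Col DEX (-3.81 ± 0.32, adjusted p = 0.00111). AT3G44326 stood at 6.39, 6.27 and 6.34 in sid2 DEX, against 8.54, 6.47 and 8.87 in Col DEX (-2.39 ± 0.14, adjusted p = 6.97e-05). AT5G41280 was dim in sid2 DEX, with 3.75, 3.73 and 3.62, against 5.39, 3.44 and 5.43 in Col DEX (-1.71 ± 0.10, adjusted p = 8.19e-05). In all 3 loci the replicates of sid2 DEX lay within 0.2 log2 units of each other. AT3G11402, AT4G11900, AT1G50350, AT4G30640, AT5G62770, AT2G23200, AT1G34750, AT5G11420 and AT3G29240 were 2.25-fold to 6.30-fold lower. Of the 37 genes, 8 had a mean under 5 in sid2 DEX, near the dim end of the arrays.

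AT2G27660 differed from the other called genes in the array labelled Col DEX replicate 2. It stood at 7.30, 8.11 and 6.91 in sid2 DEX, against 10.32, 9.55 and 10.43 in Col DEX, so that all 3 Col DEX arrays were above all sid2 DEX arrays. The difference was -2.66 ± 0.41 with all arrays (unadjusted p = 5.43e-05, adjusted p = 0.520) and -3.12 ± 0.38 without the array in doubt (adjusted p = 0.00952). AT2G27660 and RLP43 (adjusted p = 0.00892) were the called genes nearest to the threshold. Just outside it were the tyrosine aminotransferase gene TAT3 (-3.23, adjusted p = 0.0105) and the amino acid transporter gene LHT7 (-2.14, adjusted p = 0.0113).

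The array labelled Col DEX replicate 2 was then placed gene by gene between the other arrays. Among the 37 called genes other than SID2, it was below both other Col DEX arrays in 37. The genes had been chosen for high levels in those other arrays. Its level was within the sid2 DEX range in 11, below that range in 6 and above it in 20. Expressed as a share of the way from the sid2 DEX mean to the mean of Col DEX replicates 1 and 3, its position had a median of 7.11%, a range of -44.2% to 71.9% and a second highest value of 33.6%. The same-numbered pairs therefore differed little in pair 2. The median sid2 minus Col difference over the 37 genes was -2.02 in pair 1, -0.15 in pair 2 and -2.45 in pair 3. In pair 2 sid2 was lower in 30 of the 37 genes, and the share of all loci lower in that pair was not counted.

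Genes of MAPK output did not set this array apart. MKK4, the gene whose active form the transgene encodes, stood at 13.82, 14.06 and 14.22 in sid2 DEX, against 14.04, 14.05 and 14.23 in Col DEX. FRK1, a marker of MPK3 and MPK6 activation, stood at 11.38, 12.22 and 12.12 in sid2 DEX, against 12.03, 12.45 and 12.17 in Col DEX. The groups overlapped in both genes. None of the 6 MAPK output genes was called, and their median difference without the array in doubt was -0.08. None of 11 genes of jasmonate and ethylene output was called either, with a median of -0.16.

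PR genes likewise did not pass the test under DEX. PR1, the usual marker of SA signalling, stood at 13.04, 13.30 and 13.18 in sid2 DEX, against 13.81, 13.27 and 13.96 in Col DEX, a difference of -0.51 ± 0.36 with all arrays (adjusted p = 0.938) and -0.73 ± 0.40 without the array in doubt (adjusted p = 0.890). The array in doubt lay within the sid2 DEX range, and the other Col DEX arrays lay above that range. These SEs are shared with the mock groups, within which PR1 varied more than within the DEX groups. In mock leaves PR1 stood at 5.64, 4.60 and 4.91 in sid2, against 8.55, 9.93 and 9.78 in Col (-4.37 ± 0.36, adjusted p = 0.00393), the 1 gene called there (0.00306% of loci). The mock call held without Col mock replicate 1, sid2 mock replicate 1, Col DEX replicate 1 or the array labelled Col DEX replicate 2, and it was lost when any other single array was left out or the replicate was a fixed block. The sid2 effect on PR1 differed between DEX and mock by 3.86 ± 0.50, with an unadjusted p of 1.14e-05 and an adjusted p of 0.225. PR2, a β-glucanase, had 10.39, 9.33 and 8.46 in sid2 DEX, against 12.35, 9.20 and 10.33 in Col DEX, with a spread within both groups and an adjusted p of 0.472 without the array in doubt. PR5 and 5 genes of systemic acquired resistance were not called.

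The mock arrays were then read for the same direction. They form no part of the sid2 DEX minus Col DEX difference but share its estimate of the spread, so that genes with a small spread in mock were more readily called and the mock p-values are not independent of that choice. Of the 37 genes other than SID2, 34 were lower in sid2 mock than in Col mock (91.9%), against 51.2% of all loci. In all 3 same-numbered pairs 32 of the 37 were lower, and the share of all loci was not counted. The median mock difference of the 37 was -0.74, where that of all loci was -0.0053. At an unadjusted p under 0.05 in the fit to all arrays, 9 of the 37 (24.3%) were lower, where 3.32% of all loci were, and none was higher. None of the 37 was called in mock, and their smallest adjusted p was 0.494. In that fit the array labelled Col DEX replicate 2 widens the shared spread of genes that followed SID2 in it, which hinders mock calls. The mock difference of DMR6, for example, was -1.26 in both fits, with an SE of 0.86 with all arrays and 0.13 without that array. In the fit without the array in doubt, in which the genes were chosen, 29 were lower at an unadjusted p under 0.05, where 3.38% of loci were, 5 had an adjusted p under 0.05, where 0.0368% of loci had, and none was called.

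Single genes varied in how much of the difference was present in mock. ARD3 stood at 4.78, 4.81 and 5.44 in sid2 mock, against 6.57, 6.71 and 7.36 in Col mock. NIMIN1 stood at 4.36, 4.22 and 4.44 in sid2 mock, against 5.63, 5.88 and 5.58 in Col mock. In both genes the mock groups did not overlap, at differences of -1.87 and -1.36. TRZ1 had a mock difference of -1.93, near that of -2.43 under DEX. WRKY67, UBQ8 and AT4G11900 were the 3 genes that were not lower in sid2 mock, with mock differences of 0.36, 0.08 and 0.02. The sid2 effect was larger under DEX than in mock, by the test of that difference, for DMR6, ARD3 and AT5G41280 (0.00919% of loci) without the array in doubt, and for no gene with all arrays, where 734 loci had an unadjusted p under 0.05. These 3 calls were not stable. The count was 0 or 1 when any further array was left out, and 0 with no replicate block.

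**Figure D4:**
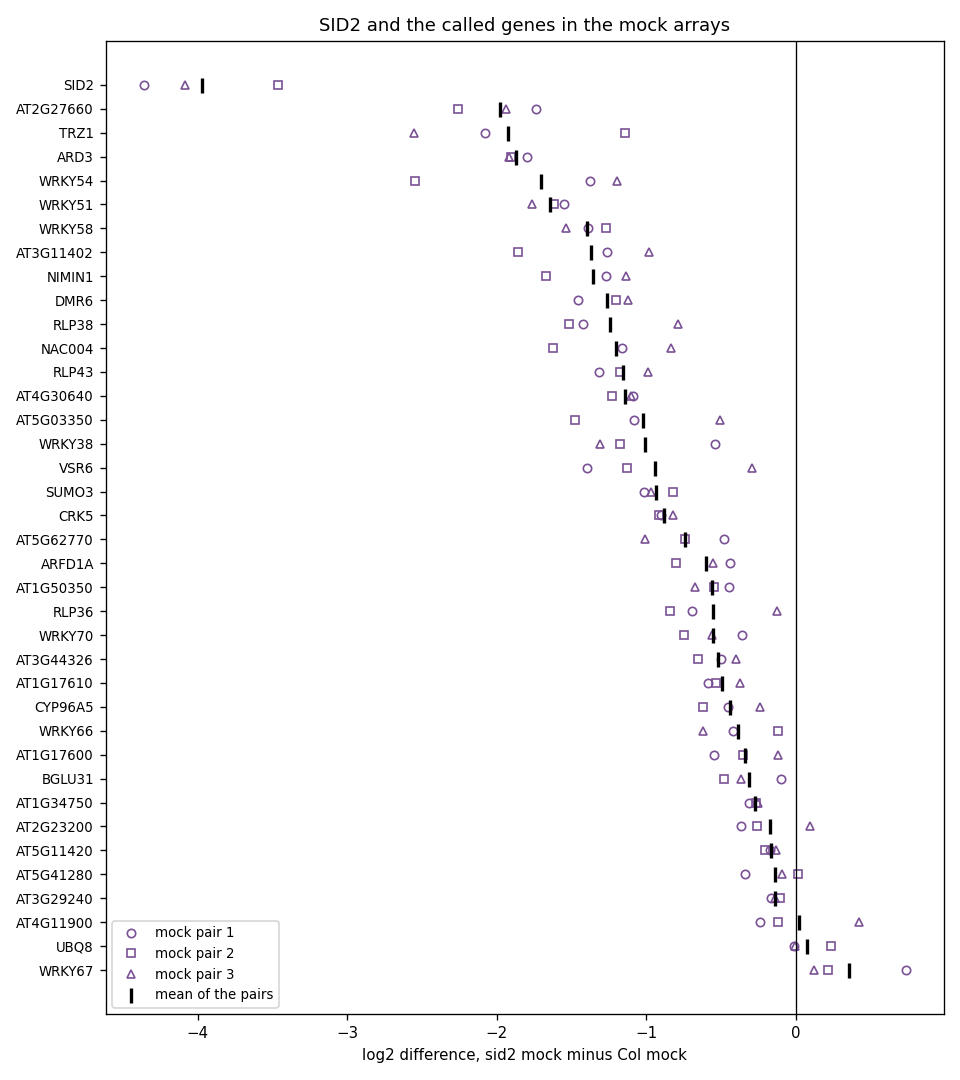
Log2 difference, sid2 mock minus Col mock, of SID2 and the 37 called genes (rows) in mock pairs 1, 2 and 3 (circles, squares and triangles), with the mean of the pairs as a black bar. All rows but AT4G11900, UBQ8 and WRKY67 have a mean below 0.

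The response to DEX in each background, DEX minus mock, shares its arrays with the choice of these genes and is given as a description, without the array in doubt. Across all loci 13% were called higher and 14.8% lower in sid2, against 13.2% higher and 14.5% lower in Col. Of these 38 genes, SID2 included, 11 were past the limits for a higher level in Col with no call in sid2. ARD3, NIMIN1, WRKY38 and WRKY66 were among them. SID2 is counted there without a test, since its level chose the array left out. With all arrays its DEX response in Col was 0.18, against 2.25 without that array. A further 11, such as DMR6, CRK5, RLP36 and RLP38, were called lower in sid2 with no call in Col. The remainder comprised 6 genes called higher in both backgrounds, such as WRKY67, WRKY51 and NAC004, 4 called lower in both, 4 with no call in either, and WRKY54 and WRKY70. WRKY54 and WRKY70 were called in opposite directions. The DEX response of WRKY54 was -2.44 in sid2 and 1.36 in Col, and that of WRKY70 was -2.19 in sid2 and 1.18 in Col. For 19 of the 37 genes other than SID2 the sid2 DEX arrays were below all 6 mock arrays. The genes had been chosen for lower levels in sid2 DEX than in Col DEX, and the share of all loci was not counted. AT5G03350 and AT5G11420 had the most negative responses in both backgrounds. AT5G03350 changed by -6.79 in sid2 and -4.01 in Col, and AT5G11420 by -6.81 in sid2 and -5.64 in Col.

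**Figure D5:**
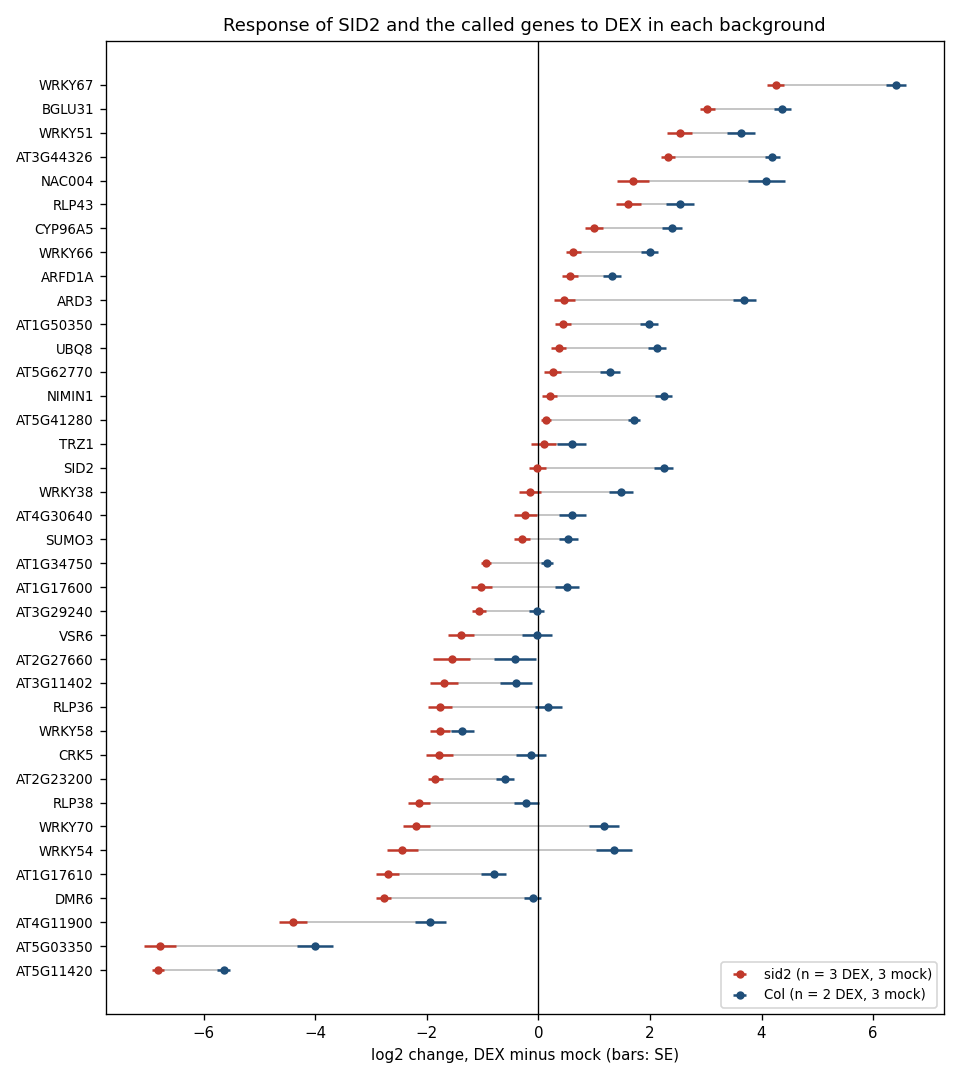
Log2 change with DEX, DEX minus mock, of SID2 and the 37 called genes (rows) in sid2 (red) and Col (blue, without the array labelled Col DEX replicate 2), with bars for the standard error. Every red point lies to the left of its blue point, which the choice of the genes brings about, and WRKY54 and WRKY70 are among the rows with points on opposite sides of 0.

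The list of 187 SA-responsive genes, which the study selected on other arrays from infected leaves, holds SID2 and 186 other loci. ARD3, WRKY38, WRKY54, WRKY66 and AT5G62770 were on it, which is 13.5% of the 37 called genes, where the list holds 0.570% of loci, and 2.69% of the 186, where 0.113% of loci were called. The median difference of the list was -0.14 with all arrays and -0.19 without the array in doubt, where that of all loci was -0.0026 and 0.0056. At an unadjusted p under 0.05 without that array, 48 of the 186 were lower (25.8%) and 3 higher (1.61%), where 3.78% of loci were lower and 2.33% higher. The study divided part of this list into clusters, drawn partly from the sid2 arrays used here, so that their medians are not independent of these data. Cluster I (85 genes) had no called gene and a median of -0.12, Cluster II (20 genes) had 1 and a median of -0.60, and Cluster III (25 genes) had none and a median of 0.21. According to the study, Clusters I and II hold genes up-regulated in infected leaves and Cluster III genes down-regulated there. The figures for the whole list thus mix both directions.

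Some genes outside the called set stood apart in all 3 pairs with all arrays. AT5G46960 stood at 6.2, 7.07 and 6.89 in sid2 DEX, against 7.72, 9.09 and 8.35 in Col DEX, with the groups not overlapping and the array labelled Col DEX replicate 2 as the highest. Its difference was -1.67 (adjusted p = 0.520). AT4G04315, a non-coding RNA locus, had the smallest adjusted p with all arrays (-0.72, adjusted p = 0.191), followed by AT2G27660. AT4G04315 was dim, at or under 4.04 in every DEX array, below the lower quartile of the arrays (4.15 to 4.20). AT5G63250 (-0.73) and AT4G29850 (-0.81) were also lower in value, and AT5G63250 was dim in sid2 DEX, at 3.60, 3.44 and 3.28. Of genes higher in value, EGY1, which encodes a chloroplast protease, stood at 10.44, 10.53 and 10.66 in sid2 DEX, against 10.09, 10.02 and 10.11 in Col DEX (0.47, adjusted p = 0.625), and the groups did not overlap. ATCG01060, AT1G70280, RNEE/G and AT3G47560 had differences of 0.51, 0.63, 0.53 and 0.40 and an adjusted p of 0.783. Without the array in doubt, the smallest adjusted p among higher values was that of RALFL17 (0.61, adjusted p = 0.0845). RALFL17 was dim too, at or under 3.70 in every DEX array. The largest of the 5 differences named by the rule was that of AT3G24230. AT3G24230 stood at 6.61, 6.95 and 5.89 in sid2 DEX, against 5.29, 6.89 and 4.92 in Col DEX (1.37, adjusted p = 0.127). NRAMP6, a metal transporter gene, stood at 9.15, 9.16 and 9.08 in sid2 DEX, against 8.58, 9.15 and 7.98 in Col DEX (0.83, adjusted p = 0.104). In both genes the array labelled Col DEX replicate 2 lay at the sid2 DEX level, in the direction opposite to that of the 37 called genes.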

How the data were processed

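Total RNA was profiled on NimbleGen one-colour arrays. According to the methods, the authors summarised probes by the robust multi-array average and kept the higher transcript of a gene, and the deposited values are linear intensities. Not given in the sources used here are software versions and whether other arrays were normalised together with these. Slides, scan data and probe sequences were not analysed here, and precision is limited by the number of arrays. Intensities were converted to log2 without a filter. A model with 4 groups was fitted by lmFit and eBayes in limma 3.58.1 (R 4.3.3), with the replicate number as a random block (statmod 1.5.0, consensus correlation 0.208 with all 12 arrays and 0.229 with 11), after the model in the methods. P-values were adjusted over 32627 loci by Benjamini and Hochberg's method in place of the authors' q-values, and all tests were two-sided. The methods describe 3 independent experiments. Deviations from the group means of same-numbered sid2 and Col arrays correlated at 0.387 to 0.668 in DEX and 0.563 to 0.733 in mock, and the replicate numbers of the labels were taken to pair them. The fits were tested on simulated data. Symbols came from RefSeq (TAIR10.1, 31993 loci matched), used for names and neighbours alone. SID2 is listed there as EDS16. Promoter motifs were planned but not counted, because no promoter sequences were used here. The genes named are SID2, all called genes, the 5 genes with the smallest p per direction and fit, and members of the gene lists. The array left out, the lists and the tests were chosen with earlier results of these data known. Alternatives were other blocks, priors, array weights, scales, filters, call rules and leaving out each array.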

Additional observations from a re-analysis of the deposited data

Results flagged for a closer look

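The difference between the sid2 effect under DEX and that in mock passed the test for 3 genes in the fit without the array labelled Col DEX replicate 2. DMR6 differed by -2.67 (adjusted p = 0.00552, limma), with a sid2 effect of -3.93 under DEX and -1.26 in mock. ARD3 differed by -3.23 (adjusted p = 0.00605) and AT5G41280 by -1.57 (adjusted p = 0.00605). AT5G41280 was at or under 3.83 in sid2 DEX and in all mock arrays, below the lower quartile of the arrays (4.15 to 4.20), so that the size of its mock effect and of this difference cannot be read. In all 3 genes sid2 DEX lay below Col DEX replicates 1 and 3 in every array, which their choice on these arrays favours. With all arrays the adjusted p of this difference was over 0.05 for each of them.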

How the results depend on the processing

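With all arrays no gene was called between sid2 DEX and Col DEX under any alternative that kept the array labelled Col DEX replicate 2. Leaving out single arrays gave 0 to 38 calls, 38 being those without that array, and leaving out the replicate 2 arrays of all groups, chosen after seeing the data, gave 13. Without the array in doubt, the 38 genes past the limits, SID2 counted here and below, became 25 with no replicate block, 9 with the DEX arrays alone and a fixed replicate block (6 of the 38 among them), 14 with treat at 1.5-fold, 72 at an adjusted p under 0.05 and 13 without replicate 2 of all groups. Leaving out 1 more array gave 14 to 44. A fixed replicate block gave 38 calls, 31 of them shared, and other settings 34 to 49. All 38 genes kept their sign in the settings run, and of the 37 other than SID2, DMR6, ARD3, NIMIN1 and WRKY54 were called in each setting that tested them. The 1 mock call became 0 with a fixed replicate block, 2 with array weights, a common median or log2(value + 16), 3 at an adjusted p under 0.05 and 0 to 2 when single arrays were left out. For the difference of the sid2 effects, no call was made with all arrays, against 0 to 3 when single arrays were left out. Its 3 calls without the array in doubt became 0 with no replicate block or treat, 7 with array weights, 10 at an adjusted p under 0.05, and 0 or 1 when a further array was left out. The mock difference of UBQ8 (AT3G09790), 0.08 in the fit to all arrays, turned to -0.012 with array weights, -0.15 without sid2 mock replicate 2, -0.0072 without Col mock replicate 3 and -0.0069 without replicate 2. That of AT4G11900 turned to -0.20, -0.23 and -0.36 with the first 3 of these. When single arrays were left out, these values reached up to 0.21 for UBQ8 and 0.35 for AT4G11900. The cause of these changes was not tested.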
